A study of Homo sapiens with 6 samples.

Results

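The replication-dependent histone genes were taken as all genes of the deposited table whose symbol starts with HIST1H, HIST2H, HIST3H or HIST4H, which gave 66 of 20811 genes. By symbol they belong to the linker histone H1 (6 genes) and the core histones H2A (15), H2B (20), H3 (12) and H4 (13). GENCODE lists 64 of them as protein-coding and 2 H2B genes, HIST2H2BA and HIST2H2BC, as transcribed pseudogenes. On GRCh38 the 55 HIST1 genes lie on chromosome 6, the 7 HIST2 and 3 HIST3 genes on chromosome 1 and the 1 HIST4 gene on chromosome 12; HIST2H2BA lies apart from the other 6 HIST2 genes, at chr1:121108210-121117257. The RPM of 52 of them averaged at least 1 over all libraries, HIST1H4F and HIST2H2BA had no reads, and 7 in all, these included, had at most 3 reads in every library.

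Dividing cells make most of their histone protein from these genes, many of them without introns, which are switched on together at the start of S phase so that new DNA can be packed into nucleosomes. Their mRNAs normally end in a conserved stem-loop in place of a poly(A) tail. The stem-loop binding protein SLBP holds that structure and is needed for the processing, translation and timed decay of the mRNA, and NPAT, a target of cyclin E and CDK2, drives transcription of the clusters. Histone variants such as H2A.Z, by contrast, come from single polyadenylated genes that are also read outside S phase.

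The cells were HuCCT1, an established human intrahepatic cholangiocarcinoma line. HuCCT1/CD90+ cells had received human THY1-CMV-GFP, a lentivirus that codes for CD90, while HuCCT1/CD90- cells had the vector Lenti-CMV-GFP-2A-Puro-Blank, both at an MOI of 40 (virus particles per cell), so that both lines share the parent line, the CMV promoter and GFP. Each line gave 3 libraries from total RNA, and the sources used here do not state whether these were separate cultures or whether a line was a single clone, so p-values measure only the spread between these libraries. Reads were counted per gene over 1 amplicon and given per 1000000 reads of the library (RPM), so an RPM compares the lines for a gene and not the levels of different genes.

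The libraries held 8587634 to 10551516 reads on genes, and 3 reads were worth 0.284 to 0.349 RPM. THY1 had 0, 1 and 0 reads in HuCCT1/CD90- and 435, 445 and 680 reads in HuCCT1/CD90+, as the labels of the lines give it. Among markers of cell types, KRT7 and KRT19, keratins of bile duct epithelium, were at 3150 to 4027 and 3042 to 4291 RPM, while the hepatocyte genes ALB and TTR, the leukocyte genes PTPRC and CD3E and the endothelial gene VWF had at most 4 reads in any library. Other markers of those lists were detected, CD68 of leukocytes at 46.4 to 100.4 RPM in all libraries and, in HuCCT1/CD90-, CDH5 of endothelium at 13.4 to 19.7, PECAM1 at 1.14 to 3.49 and APOA1 of hepatocytes at 1.75 to 4.28 RPM. Of fibroblast markers LUM was at 17.2 to 38.1, COL1A1 at 11.2 to 15.5 and DCN at 2.27 to 11.2 RPM in HuCCT1/CD90-.

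To show the sequences by which histone genes are recognised, 150 bases before the start of 1 gene of each class are printed below, each chosen among the genes that were lower in HuCCT1/CD90+. They come from RefSeq (GRCh38.p14), which gave a promoter window for 59 of the 66 genes. Capitals mark the CCAAT box, the TATA box searched as TATAAA, the octamer ATTTGCAT, the H1 box searched as AAACACA, and the letters GGTCC, the core of an element of H4 genes, on either strand, and neighbouring capitals can be motifs that touch or overlap. The stretches lie at chr6:26234988-26235137, minus strand (HIST1H1D), chr6:27838376-27838525, minus strand (HIST1H2AK), chr1:149886683-149886832, minus strand (HIST2H2BE), chr6:26250636-26250785, minus strand (HIST1H3F) and chr6:26027284-26027433, minus strand (HIST1H4B).
HIST1H1D: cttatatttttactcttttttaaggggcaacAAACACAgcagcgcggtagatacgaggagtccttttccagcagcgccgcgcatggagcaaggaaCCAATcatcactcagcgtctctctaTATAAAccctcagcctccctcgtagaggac
HIST1H2AK: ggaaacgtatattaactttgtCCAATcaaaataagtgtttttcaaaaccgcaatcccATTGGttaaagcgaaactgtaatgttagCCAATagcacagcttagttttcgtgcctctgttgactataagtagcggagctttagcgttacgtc
HIST2H2BE: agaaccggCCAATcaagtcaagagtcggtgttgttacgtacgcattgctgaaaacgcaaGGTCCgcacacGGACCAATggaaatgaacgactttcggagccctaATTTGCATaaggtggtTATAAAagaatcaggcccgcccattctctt
HIST1H3F: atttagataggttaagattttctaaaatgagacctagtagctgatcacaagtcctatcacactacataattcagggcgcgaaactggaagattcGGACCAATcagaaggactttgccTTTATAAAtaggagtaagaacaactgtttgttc
HIST1H4B: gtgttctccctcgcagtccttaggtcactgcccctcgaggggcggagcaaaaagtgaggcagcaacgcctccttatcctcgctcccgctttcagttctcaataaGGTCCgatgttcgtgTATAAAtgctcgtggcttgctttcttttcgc

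Counted over the 63 RefSeq windows of histone genes, from 250 bases before to 50 after the start, CCAAT stood in all 6 windows of H1, all 14 of H2A, all 20 of H2B and all 12 of H3 genes but in 3 of 11 of H4 genes, against 34.6% of 35116 windows over all genes. TATAAA stood in 42 of the 63, against 11.5%. The octamer was in 11 of 14 H2A and 15 of 20 H2B windows, against 1.77% of all, in 1 H3 window and in none of H1 or H4. All 6 H1 windows held the H1 box and 10 of 11 H4 windows GGTCC, against 5.64% and 46.3% of all windows. These are matches of letters within the window and say nothing of binding.

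The stem-loop at the end of the mRNA is shown because it sets these mRNAs apart from polyadenylated ones. Annotated transcripts often stop before it. In GENCODE the transcripts of 33 of the 66 genes end at the stop codon, those of 25 genes run at least 80 bases past it, and the stem-loop was found in 22 of these 25 and in 24 genes in all, in 4 forms, with the 4 bases of the loop in capitals below. Of the 24 genes, 13 had the form shown for HIST2H2BE (chr1:149886188-149886203), 5 that of HIST1H2BD (chr6:26158587-26158602), 5 that of HIST1H4B (chr6:26026901-26026916) and 1 that of HIST1H4I (chr6:27139654-27139669), all on GRCh38.
HIST2H2BE: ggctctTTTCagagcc
HIST1H2BD: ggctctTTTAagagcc
HIST1H4B: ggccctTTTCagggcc
HIST1H4I: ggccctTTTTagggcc
The forms with ggctct stems belonged to H2A, H2B and H3 genes and those with ggccct stems to H4 genes. Transcripts of 21 genes ran on for at least 200 bases after the stop codon, which leaves room for a poly(A) end. How the RNA was primed for reverse transcription is not stated in the sources used here, so whether both kinds of mRNA end were read alike was not tested.

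The replication-dependent histone genes were lower in HuCCT1/CD90+ than in HuCCT1/CD90-, as the sum of each class and for most single genes in sign. Summed over the 66 genes, they took 8490.3, 8070.2 and 7087 RPM in HuCCT1/CD90- and 4548, 5507 and 4563 RPM in HuCCT1/CD90+, a mean of 7882 ± 720.3 against 4873 ± 549 RPM (SD, n = 3), or 0.788% against 0.487% of all reads. All HuCCT1/CD90- libraries were above all HuCCT1/CD90+ libraries, and the ratio of the means was 1.62. In bulk RNA a smaller share of cells in S phase and less histone mRNA in each such cell cannot be told apart.

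Tested gene by gene with limma on log2(RPM + 1), with Benjamini-Hochberg adjustment over all 20811 genes, 17 of the 66 were lower in HuCCT1/CD90+ (25.8%) and 1 was higher, at an adjusted p of at most 0.05, against 9.52% lower and 9.41% higher among all genes. The 1 higher gene, HIST2H2BF, had no reads in HuCCT1/CD90- and 1, 1 and 2 reads in HuCCT1/CD90+, which is within the floor of 3 reads, so no fold is given. Every HuCCT1/CD90- library was above every HuCCT1/CD90+ library for 31 of the 66 genes (47.0%, against 17.7% of all genes), and the reverse held for 3 (17.3%). The sign of the change was negative for 53 of the 66, and the median log2 fold change over the 66 was -0.46, against 0.00 over all genes, and -0.53 against -0.01 over those that averaged at least 1 RPM. With genes that averaged at least 1 RPM alone, 28 of 52 were lower and 0 higher by limma (21.1% and 20.6% of 12062 genes), 36 of the 52 being lower at an unadjusted p of at most 0.05 (25.4% of all), and all 17 were among the 28. The quasi-likelihood test of edgeR on the recovered reads called 33 lower and 0 higher (22.2% lower of 12070 genes), and DESeq2 31 lower (18.0% of 14399).

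The count of 17 depended on every library. It was 3, 1 and 9 without HuCCT1/CD90- library 1, 2 and 3, and 0, 8 and 2 without HuCCT1/CD90+ library 1, 2 and 3. Of all genes, 7.40%, 6.43% and 5.81%, and 5.66%, 5.79% and 5.02%, were lower in the same fits, so that in 4 of the 6 the share of histone genes called lower was below that of all genes, and in the fits without HuCCT1/CD90- library 3 and without HuCCT1/CD90+ library 2 it was above. Without HuCCT1/CD90+ library 1, where limma gave the 0, 25 genes were lower at an unadjusted p of at most 0.05 (13.9% of all genes), and 53 of 66 were negative in sign. With the replicate number as a block limma called 7 genes lower (6.40% of all genes), of which HIST1H1D and HIST1H3A were among the 17 and HIST1H1E, HIST1H2AC, HIST1H2AL, HIST1H3I and HIST2H2AC were not. The same fit called HIST1H2AA higher in place of HIST2H2BF. HIST1H2AA had 2, 1 and 0 reads in HuCCT1/CD90-, within the floor of 3 reads, and 5, 4 and 3 reads in HuCCT1/CD90+. At an unadjusted p of at most 0.05 and a fold of 1.5, the thresholds named in the methods, 20 of the 66 were lower (9.98% of all genes) and 0 higher (10.1%).

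**Figure D1:**
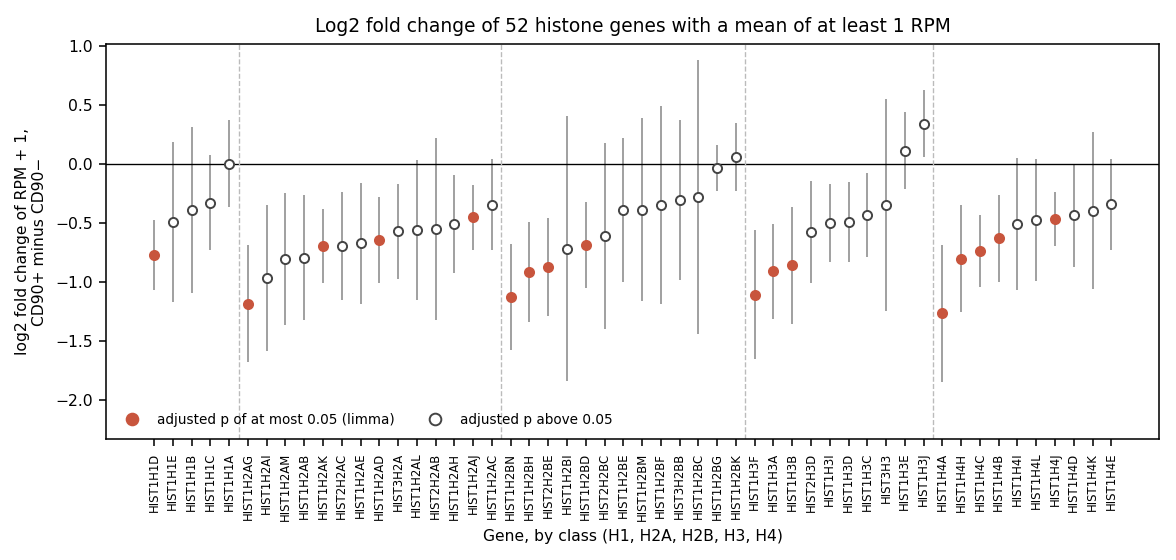
Log2 fold change of RPM + 1 (vertical axis, CD90+ minus CD90-, with 95% confidence intervals from limma, n = 3 libraries a line) for the 52 histone genes averaging 1 RPM or more, grouped by class. Filled points passed an adjusted p of at most 0.05; 48 of the 52 points lie below 0, and HIST1H3J is the highest at 0.34.

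By class, the summed RPM of H2B genes was 2552, 2462 and 2026 RPM in HuCCT1/CD90- and 1224, 1574 and 1261 RPM in HuCCT1/CD90+. H4 genes summed to 2204, 1888 and 1842 RPM in HuCCT1/CD90- and 1100.03, 1348 and 1111 RPM in HuCCT1/CD90+. For H2A genes the sums were 1738, 1671 and 1389 RPM in HuCCT1/CD90- and 889, 1149 and 898 RPM in HuCCT1/CD90+. In each of these classes the libraries of the lines did not overlap, with ratios of the mean sums of 1.73, 1.67 and 1.63. H3 genes together gave 1359, 1261 and 1192 RPM in HuCCT1/CD90- and 912, 883 and 842 RPM in HuCCT1/CD90+. The H1 genes gave 638, 788 and 637 RPM in HuCCT1/CD90- and 424, 553 and 452 RPM in HuCCT1/CD90+. Here too every HuCCT1/CD90- library was above every HuCCT1/CD90+ library, with ratios of 1.45 for H3 and 1.44 for H1. A class sum follows its highest genes, and the order by single genes was another. Over genes averaging 1 RPM or more the median log2 fold change was -0.39 for H2B, -0.49 for H4, -0.66 for H2A, -0.50 for H3 and -0.39 for H1. Whether the classes differed in their change was not tested.

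**Figure D2:**
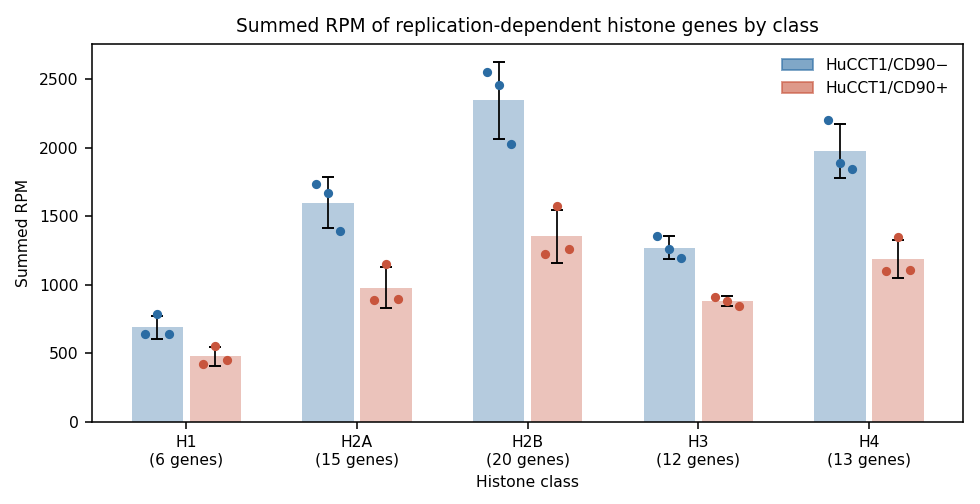
Summed RPM of the histone genes of each class (vertical axis, from 0), with bars for the mean of 3 libraries, error bars for the SD and a point for each library. In all 5 classes the 3 HuCCT1/CD90- libraries lie above the 3 HuCCT1/CD90+ libraries.

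Linker histone H1 sits on the DNA between nucleosomes and compacts it. Of the 6 H1 genes, HIST1H1D (chr6:26234268-26234933) was lower in HuCCT1/CD90+, against 9.52% of all genes. HIST1H1D measured 197, 189 and 167 RPM in HuCCT1/CD90- and 102, 122 and 99.7 RPM in HuCCT1/CD90+ (log2 fold change -0.77, SE 0.11, adjusted p = 0.015). The HuCCT1/CD90- libraries were all at or above 167 RPM and the HuCCT1/CD90+ libraries at or below 122, and the gene passed with the replicate block as well (adjusted p = 0.047). HIST1H1E was at 305, 479.6 and 339 RPM against 216, 332 and 249 RPM (log2 fold change -0.49, SE 0.25, adjusted p = 0.3), with HuCCT1/CD90+ library 2 above HuCCT1/CD90- library 1. It did not pass the test without the block and did with it (adjusted p = 0.021). HIST1H1C overlapped as well, at 109, 75.97 and 89.3 against 77.5, 70.1 and 68.1 RPM (log2 fold change -0.33, SE 0.15, adjusted p = 0.24). HIST1H1A stood at a mean of 12.5 ± 2.19 against 12.4 ± 0.340 RPM (SD, n = 3), a difference of 0.00 on the log2 scale with an SE of 0.14. HIST1H1B did not pass either (log2 fold change -0.39, SE 0.26), and the testis gene HIST1H1T had at most 4 reads in any library.

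H2A pairs with H2B in the nucleosome core. Of the 15 H2A genes, 4 were lower in HuCCT1/CD90+ (9.52% of all genes), and 11 had all HuCCT1/CD90- libraries above all HuCCT1/CD90+ libraries (17.7% of all genes). HIST1H2AG (chr6:27133042-27135291) measured 119.9, 90.5 and 84.3 RPM in HuCCT1/CD90- and 39.8, 49.95 and 37.8 RPM in HuCCT1/CD90+ (log2 fold change -1.18, SE 0.19, adjusted p = 0.019). The lowest HuCCT1/CD90- library was 84.3 RPM and the highest HuCCT1/CD90+ library 49.95 RPM. HIST1H2AK measured 21.6, 23.3 and 17.4 RPM in HuCCT1/CD90- and 12.8, 12.1 and 12.3 RPM in HuCCT1/CD90+ (log2 fold change -0.69, SE 0.12, adjusted p = 0.023). The 3 HuCCT1/CD90+ values lay close together, below all 3 HuCCT1/CD90- values. HIST1H2AD measured 52.03, 43.7 and 50.6 RPM in HuCCT1/CD90- and 34.2, 32.95 and 25.9 RPM in HuCCT1/CD90+ (log2 fold change -0.64, SE 0.14, adjusted p = 0.041). HIST1H2AJ passed narrowly (log2 fold change -0.45, SE 0.10, adjusted p = 0.0498). Its call was lost with an offset of 5 RPM, with quantile normalization and with trend and robust eBayes. With the replicate block none of the 4 passed by limma, with adjusted p of 0.077 for HIST1H2AG, 0.076 for HIST1H2AK, 0.12 for HIST1H2AD and 0.15 for HIST1H2AJ. The coding sequence of HIST1H2AJ is 96.7% identical to that of HIST1H2AI, and how reads were shared between such copies is not stated. HIST1H2AI itself fell short of the threshold at 281, 268 and 187 RPM against 116, 153 and 105 RPM (log2 fold change -0.97, SE 0.23, adjusted p = 0.056). HIST1H2AM (368, 385 and 280.1 against 167, 244 and 181 RPM, adjusted p = 0.068), HIST1H2AH (adjusted p = 0.1) and HIST3H2A (adjusted p = 0.07) also separated the lines without passing. These 4 genes were lower in the fit over genes averaging 1 RPM or more, with adjusted p of 0.0027 for HIST1H2AI, 0.0059 for HIST1H2AM, 0.033 for HIST1H2AH and 0.018 for HIST3H2A.

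Among the 20 H2B genes 4 were lower in HuCCT1/CD90+, against 9.52% of all genes. HIST2H2BE (chr1:149884459-149886652), whose promoter and stem-loop are printed above, measured 1127, 1059 and 894 RPM in HuCCT1/CD90- and 501, 666 and 516 RPM in HuCCT1/CD90+ (log2 fold change -0.88, SE 0.16, adjusted p = 0.026). Here the HuCCT1/CD90+ libraries ranged up to 666 RPM, below the lowest HuCCT1/CD90- value of 894 RPM. HIST1H2BD (chr6:26158146-26171349) measured 750.5, 773 and 597 RPM in HuCCT1/CD90- and 408, 489.8 and 415 RPM in HuCCT1/CD90+ (log2 fold change -0.69, SE 0.14, adjusted p = 0.035). HIST1H2BN measured 291, 268 and 227 RPM in HuCCT1/CD90- and 106, 144 and 109.9 RPM in HuCCT1/CD90+ (log2 fold change -1.13, SE 0.17, adjusted p = 0.016). HIST1H2BN shares its annotated span with HIST1H2AK on the opposite strand and HIST1H2AL on the same strand, and the strand of counting is not stated, so the values of these 3 genes may not be separate. HIST1H2BH measured 210.3, 207 and 156 RPM in HuCCT1/CD90- and 94.2, 114 and 92.9 RPM in HuCCT1/CD90+ (log2 fold change -0.91, SE 0.16, adjusted p = 0.025). All 4 calls were lost with the replicate block, with adjusted p of 0.073 for HIST2H2BE, 0.062 for HIST1H2BD, 0.062 for HIST1H2BN and 0.053 for HIST1H2BH. In all 4 genes the lines did not overlap, and in no other H2B gene was every HuCCT1/CD90- library above every HuCCT1/CD90+ library. Besides these 4 and HIST2H2BF, no H2B gene passed. HIST1H2BK gave 29.2, 25.7 and 25.9 against 32.2, 25.6 and 26.7 RPM (log2 fold change 0.06) and HIST1H2BG 11.1, 9.95 and 11.8 against 11.3, 10.4 and 10.3 RPM (-0.04), with the lines overlapping in both. HIST3H2BB overlapped too, at 54.8, 44.3 and 41.6 against 29.2, 51.8 and 34.6 RPM (adjusted p = 0.56). HIST2H2BF and 6 further H2B genes averaged under 1 RPM.

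H3 and H4 form the inner part of the nucleosome core. Of the 12 H3 genes 3 were lower in HuCCT1/CD90+, against 9.52% of all genes. HIST1H3F (chr6:26250195-26250605) measured 45.96, 30.9 and 41.03 RPM in HuCCT1/CD90- and 14.3, 19.8 and 18.9 RPM in HuCCT1/CD90+ (log2 fold change -1.11, SE 0.21, adjusted p = 0.029). HIST1H3A measured 166, 134 and 116 RPM in HuCCT1/CD90- and 75.6, 74.5 and 67.6 RPM in HuCCT1/CD90+ (log2 fold change -0.91, SE 0.15, adjusted p = 0.022). The HuCCT1/CD90+ values of HIST1H3A were at most 75.6 RPM and its HuCCT1/CD90- values at least 116 RPM. HIST1H3B measured 246, 183 and 223 RPM in HuCCT1/CD90- and 143, 117 and 99.5 RPM in HuCCT1/CD90+ (log2 fold change -0.86, SE 0.19, adjusted p = 0.043). HIST1H3A also passed with the replicate block (adjusted p = 0.048), while HIST1H3F and HIST1H3B did not (adjusted p of 0.13 and 0.078). The call of HIST1H3B was lost with trend and robust eBayes too. HIST1H3I separated the lines at 411, 424 and 353 against 279.7, 314 and 246 RPM but stood at an adjusted p of 0.059, and 0.028 with the block. HIST1H3C separated them less widely, at 349, 349 and 316 against 255, 211 and 289.6 RPM (adjusted p = 0.1). HIST3H3, the H3 gene of the testis, had 1.90, 2.57 and 3.10 against 0.858, 3.03 and 1.74 RPM and overlapped.

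HIST1H3J (chr6:27890382-27893106) went the other way. It measured 67.8, 57.99 and 63.4 RPM in HuCCT1/CD90- and 82.2, 88.03 and 70.7 RPM in HuCCT1/CD90+ (log2 fold change 0.34, SE 0.11, adjusted p = 0.11). All 3 HuCCT1/CD90+ libraries were above all 3 HuCCT1/CD90- libraries, yet the gene did not pass the test. The start of its annotated span overlaps HIST1H2AM on the same strand, a gene that was at 368, 385 and 280.1 RPM in HuCCT1/CD90- and 167, 244 and 181 RPM in HuCCT1/CD90+, so that overlapping gene models gave opposite signs. HIST1H3E, at 4.08, 5.24 and 5.33 against 4.72, 5.47 and 5.86 RPM, overlapped between lines (log2 fold change 0.11).

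Most H4 genes code for almost the same protein, while the coding sequence of HIST1H4G is shorter, at 294 against 309 bases. Of the 13 H4 genes, 5 were lower in HuCCT1/CD90+ (9.52% of all genes) and 8 had all HuCCT1/CD90- libraries above all HuCCT1/CD90+ libraries (17.7%). HIST1H4A (chr6:26021679-26021990) measured 186, 124 and 129.5 RPM in HuCCT1/CD90- and 60.5, 69.5 and 49.8 RPM in HuCCT1/CD90+ (log2 fold change -1.27, SE 0.22, adjusted p = 0.024). By limma this was the largest log2 fold change of the 66 genes, and the lines stood far apart. HIST1H4C measured 786, 756 and 662 RPM in HuCCT1/CD90- and 414, 501 and 411 RPM in HuCCT1/CD90+ (log2 fold change -0.73, SE 0.11, adjusted p = 0.018). HIST1H4H measured 743, 531 and 564 RPM in HuCCT1/CD90- and 328, 397 and 319.7 RPM in HuCCT1/CD90+ (log2 fold change -0.80, SE 0.17, adjusted p = 0.04). HIST1H4B measured 277, 279 and 278 RPM in HuCCT1/CD90- and 151, 215 and 177 RPM in HuCCT1/CD90+ (log2 fold change -0.63, SE 0.14, adjusted p = 0.045). The HuCCT1/CD90- values of HIST1H4B were almost the same in all 3 libraries and those of HuCCT1/CD90+ ran from 151 to 215 RPM, without overlap. The call of HIST1H4B was lost with quantile normalization and with trend and robust eBayes. HIST1H4J passed as well (log2 fold change -0.47, adjusted p = 0.029), though not by DESeq2 (adjusted p = 0.079) or with quantile normalization (adjusted p = 0.066), and HIST1H4K, whose coding sequence is 100% identical to it, did not (log2 fold change -0.40, adjusted p = 0.4), so these values may share reads. None of the 5 lower H4 genes passed with the replicate block by limma, with adjusted p of 0.079 for HIST1H4A, 0.054 for HIST1H4C, 0.14 for HIST1H4H, 0.11 for HIST1H4B and 0.14 for HIST1H4J.

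**Figure D3:**
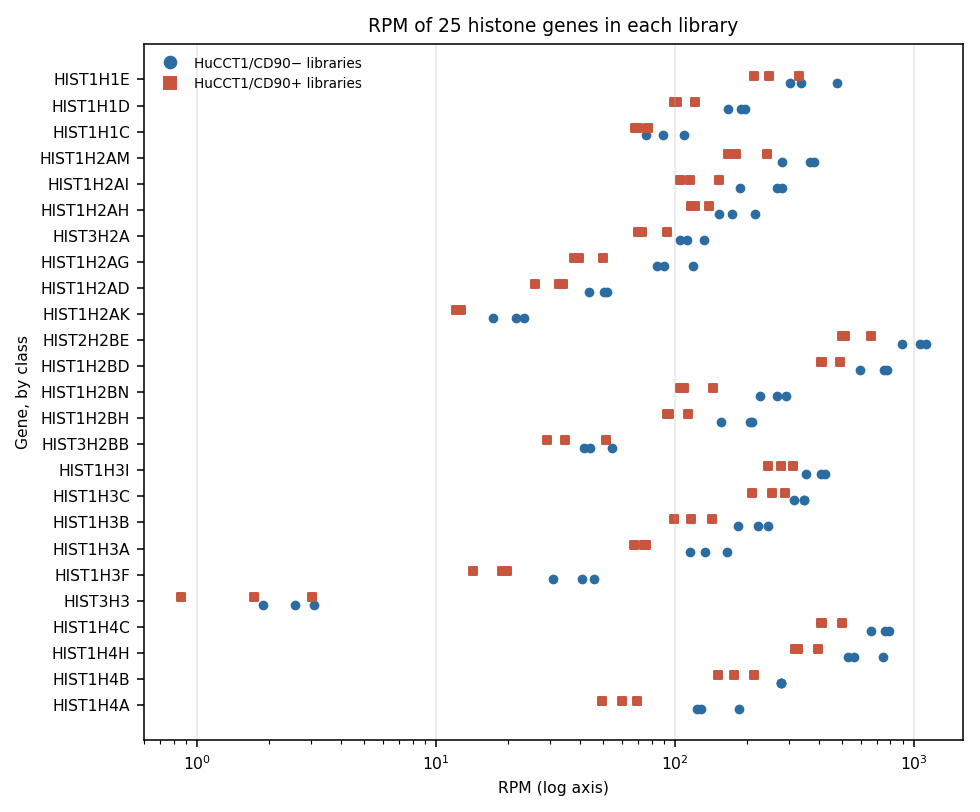
RPM (horizontal log axis) of 25 histone genes in each library, ordered by class and by mean RPM within a class. Circles are the 3 HuCCT1/CD90- libraries and squares the 3 HuCCT1/CD90+ libraries; the circles lie right of the squares without overlap in most genes, and overlap is seen for HIST1H1E, HIST1H1C, HIST3H2BB and HIST3H3.

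H2A and H2B genes often lie head to head around a shared promoter. There were 11 such pairs, with starts 219 to 331 bases apart on GRCh38. In 7 pairs both genes averaged at least 1 RPM, both log2 fold changes were negative in 6 of them, and the H2A gene had the lower one in 6. HIST1H2AE and HIST1H2BG gave -0.67 and -0.04, and HIST1H2AH and HIST1H2BK -0.51 and 0.06, with only the H2A gene of each pair free of overlap between lines. The exception was the HIST2 pair, with -0.69 for HIST2H2AC and -0.88 for HIST2H2BE. The difference between partners was not tested.

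By cluster, which was not tested as a group, HIST1 genes summed to 6992, 6629 and 5864 RPM in HuCCT1/CD90- and 3832, 4547 and 3826 RPM in HuCCT1/CD90+, a ratio of means of 1.60, and 16 of 55 were lower, against 9.52% of all genes. The HIST2 genes gave 1308, 1281 and 1073 RPM in HuCCT1/CD90- and 613, 812 and 629 RPM in HuCCT1/CD90+, a ratio of 1.78, and 1 of 7 was lower and 1 higher. HIST3 genes, with a ratio of 1.40, gave 189.8, 159.96 and 149.8 RPM in HuCCT1/CD90- and 103, 148 and 107 RPM in HuCCT1/CD90+, which do not overlap by a narrow margin, and 0 of the 3 passed by limma, with 1 at an unadjusted p of at most 0.05 (15.9% of all genes) and 1 lower by edgeR. HIST4H4 overlapped between lines, with at most 6 reads in any library.

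Other genes beside the clusters were compared with the histone genes, since a stretch of chromosome can move as a whole. Within 2 Mb of HIST1, 35 other genes that averaged at least 1 RPM had a median log2 fold change of -0.03. Of these 6 were lower and 7 higher, against 9.52% and 9.41% of all genes, those with few or no reads included. The 44 histone genes at that level had a median of -0.50, and 40 lay under the median of the neighbours. Around the 6 HIST2 genes that lie together the 51 neighbours were themselves at a median of -0.50, and the 5 histone genes at -0.61. Of the 51 neighbours 22 were lower and 3 higher, against the same 9.52% and 9.41% of all genes. With those of HIST2H2BA there were 60 neighbours at a median of -0.46. Around HIST3 the 22 neighbours were at -0.41 and the 3 histone genes at -0.35, with 1 of the 3 under the neighbours' median. On chromosome 1 the medians of histone genes and of their neighbours were thus both negative, while that of the HIST1 neighbours lay near 0. Of the 10 histone genes there, HIST2H2BE was called lower and HIST2H2BF higher. Whether the position has a part in the change was not tested.

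**Figure D4:**
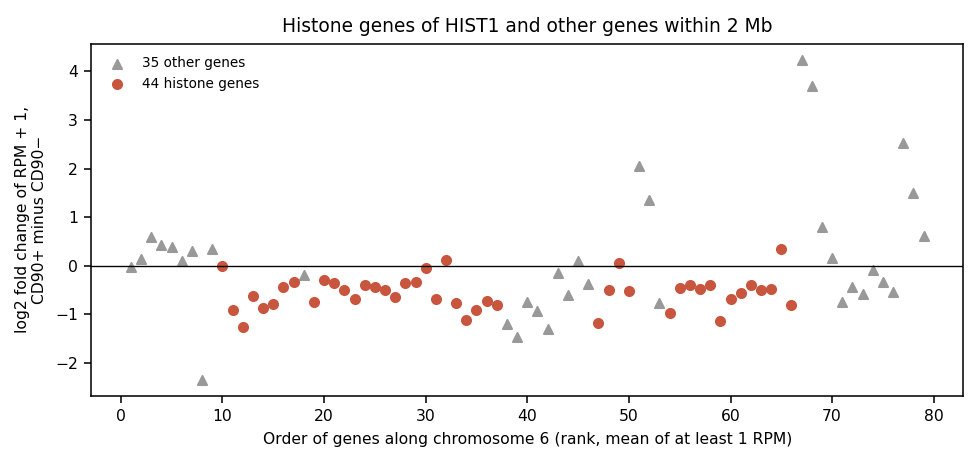
Log2 fold change of RPM + 1 (vertical axis, CD90+ minus CD90-) of 44 histone genes of HIST1 (circles) and 35 other genes within 2 Mb (triangles), in their order along chromosome 6 (horizontal axis, rank). The circles form a band below 0 with a median of -0.50, and the triangles scatter on both sides of 0.

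Histone variant genes, which are read outside S phase too, were compared in the same way. Of 12 in the list, 4 were higher and 1 lower in HuCCT1/CD90+ (limma), against 9.41% and 9.52% of all genes. H1F0, the replacement linker histone, measured 178, 164 and 173 RPM in HuCCT1/CD90- and 486, 595 and 542 RPM in HuCCT1/CD90+ (log2 fold change 1.65, SE 0.09, adjusted p = 0.0012). The lowest HuCCT1/CD90+ value was 486 RPM and the highest HuCCT1/CD90- value 178 RPM. H2AFZ, the H2A.Z gene, rose from 165, 184 and 249 to 498, 361 and 369 RPM (log2 fold change 1.04, SE 0.22, adjusted p = 0.041). CENPA, the H3 of the centromere, rose from a mean of 22.1 ± 2.28 to 37.7 ± 6.25 RPM (log2 fold change 0.74, SE 0.15, adjusted p = 0.038), and H2AFV, another H2A.Z gene, by a log2 fold change of 0.52 (adjusted p = 0.042). H3F3A, a replacement H3 gene, was the 1 that fell, from 420.5, 432 and 493 to 289, 246 and 235 RPM (log2 fold change -0.80, SE 0.11, adjusted p = 0.013). The other copy, H3F3B, showed 1039, 1434 and 1285 against 1226, 1362 and 1137 RPM (log2 fold change 0.00). With the replicate block the calls of H2AFZ, CENPA, H2AFV and H3F3A were lost (adjusted p of 0.15, 0.076, 0.071 and 0.083), and 2 variants were higher, H1F0 and H2AFY, and 0 lower by limma. Without any 1 of the 6 libraries 1 to 3 of the 12 passed. Whether variants and replication-dependent genes differed as groups was not tested.

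**Figure D5:**
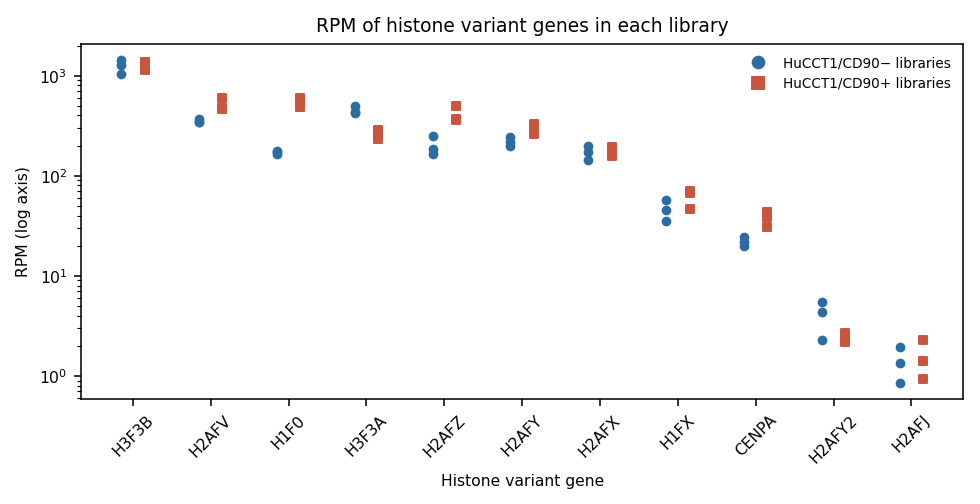
RPM (vertical log axis) of the 11 histone variant genes averaging 1 RPM or more, circles for the 3 HuCCT1/CD90- and squares for the 3 HuCCT1/CD90+ libraries. H1F0, H2AFZ, H2AFV and CENPA lie higher in HuCCT1/CD90+ and H3F3A lower, without overlap of the libraries.

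Genes that make and process histone mRNA were mostly short of the threshold. Of 21, 3 were higher and 0 lower in HuCCT1/CD90+, against 9.41% and 9.52% of all genes. The fit over genes averaging 1 RPM or more called 2 higher and 2 lower (20.6% and 21.1% of all). CCNE1, cyclin E1, was at 4.26, 2.78 and 2.52 RPM in HuCCT1/CD90- and 10.5, 7.45 and 8.57 RPM in HuCCT1/CD90+ (log2 fold change 1.24, SE 0.21, adjusted p = 0.023). UPF1, a helicase needed for histone mRNA decay, showed a log2 fold change of 0.56 (adjusted p = 0.047), and CDK2, the kinase partner of cyclin E, 0.28 (adjusted p = 0.042). The call of CDK2 was lost in the fit over genes averaging 1 RPM or more (adjusted p = 0.15), by edgeR (adjusted p = 0.1) and by DESeq2 (adjusted p = 0.085). CCNE2, cyclin E2, went the other way from CCNE1, at 31.5, 15.8 and 18.3 against 15.8, 11.1 and 11.5 RPM (log2 fold change -0.69, adjusted p = 0.23). CCNE2 and CASP8AP2 (log2 fold change -0.50, adjusted p = 0.095) were the 2 lower genes in the fit over genes averaging 1 RPM or more (adjusted p of 0.038 and 0.033). By edgeR both were lower too (adjusted p of 0.015 and 0.031). SYMPK and CSTF2, which belong to the 3' end processing machinery, did not pass. SLBP stood at 67.7, 56.9 and 62.5 against 59.6, 49.3 and 41.6 RPM (log2 fold change -0.32, SE 0.16, adjusted p = 0.26) and NPAT at 38.5, 31.8 and 42.4 against 44.2, 33.9 and 38.8 RPM (log2 fold change 0.05, SE 0.15, adjusted p = 1), with the lines overlapping in both. Without 1 library 0 to 2 of the 21 passed, a loss of more than 1.5 times for each library but HuCCT1/CD90+ library 2.

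Among 19 histone chaperones and importers, 4 were lower and 0 higher by limma, against 9.52% and 9.41% of all genes. RBBP4 and CHAF1A are subunits of CAF-1, which loads new H3 and H4 behind the replication fork. RBBP4 fell from 208, 229 and 206 to 126, 111 and 116 RPM (log2 fold change -0.86, SE 0.07, adjusted p = 0.0032). CHAF1A fell from 58.5, 62.4 and 55.2 to 40.2, 43.5 and 42.6 RPM (log2 fold change -0.47, SE 0.06, adjusted p = 0.01). CHAF1B, another subunit of CAF-1, went the other way without passing (log2 fold change 0.26, SE 0.13, adjusted p = 0.29). Every HuCCT1/CD90+ library was above every HuCCT1/CD90- library for CHAF1B, so the subunits did not move together. ANP32E, the chaperone that takes H2A.Z off chromatin, fell by 0.81 on the log2 scale (adjusted p = 0.047) and SUPT6H, a chaperone of transcription, by 0.21 (adjusted p = 0.027). The call of SUPT6H did not hold in the fit over genes averaging 1 RPM or more (adjusted p = 0.27), by edgeR (0.2), by DESeq2 (0.22) or with the replicate block (0.083). ATRX passed with the block alone (log2 fold change -0.10, adjusted p = 0.035). In the fit over genes averaging 1 RPM or more and by edgeR NASP, a chaperone of H3 and H4, was lower too (log2 fold change -0.68, adjusted p of 0.017 and 0.0035). In the other direction NAP1L4 (log2 fold change 0.62) was higher in the fit over genes averaging 1 RPM or more (adjusted p = 0.02), and edgeR called NAP1L4 and HAT1 higher (adjusted p of 0.0038 and 0.019). The chaperones NPM1 (log2 fold change -0.13) and SSRP1 (-0.15) did not pass. Without HuCCT1/CD90- library 1 or 2 or HuCCT1/CD90+ library 3 the count of 4 was 2.

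Genes of S phase and of proliferation were set beside the histone genes. Of 25 S phase genes 2 were lower and 1 higher, against 9.52% and 9.41% of all genes. TYMS, which makes thymidylate, fell from 221, 186 and 210.3 to 107, 100.03 and 88.4 RPM (log2 fold change -1.06, SE 0.10, adjusted p = 0.0055). MCM3, a subunit of the replicative helicase, fell from 362, 271 and 281 to 149, 139 and 156 RPM (log2 fold change -1.03, SE 0.13, adjusted p = 0.011). RFC2, of the clamp loader, rose from 19.997, 21.9 and 23.8 to 36.99, 30.6 and 41.1 RPM (log2 fold change 0.70, SE 0.13, adjusted p = 0.031), a call lost with the replicate block (adjusted p = 0.073). The fit over genes averaging 1 RPM or more called 8 lower and 1 higher, against 21.1% and 20.6% of all genes. The share of S phase genes called lower was thus under that of all genes in the main fit and over it in this one, a difference that was not tested. PCNA, the replication clamp, gave a log2 fold change of -0.04 (SE 0.18), and MCM4 -0.36 (adjusted p = 0.15). The other helicase subunits were not called and went both ways, MCM5 and MCM6 by -0.48 and -0.44 (adjusted p of 0.11 and 0.095) and MCM7 and MCM2 by 0.23 and 0.14 (adjusted p of 0.27 and 0.68). MCM5 and MCM6 were lower in the fit over genes averaging 1 RPM or more (adjusted p of 0.041 and 0.048). Of 10 proliferation genes 0 were lower and 1 higher by limma, again against 9.52% and 9.41%. CCNA2, cyclin A2, was at 63.97, 65.1 and 61.4 RPM in HuCCT1/CD90- and 110.3, 89.9 and 82.9 RPM in HuCCT1/CD90+ (log2 fold change 0.55, SE 0.12, adjusted p = 0.041) and lost its call with the block (adjusted p = 0.09). MKI67 was at 318, 231 and 245 against 248, 266 and 265 RPM (log2 fold change -0.01). In the fit over genes averaging 1 RPM or more 0 were lower and 4 higher by limma (21.1% and 20.6% of all genes), while edgeR gave 2 lower and 5 higher (22.2% and 22.2% of all). TOP2A, the topoisomerase of dividing cells, did not pass (log2 fold change -0.53) and fell with the replicate block (adjusted p = 0.026), and BUB1 (log2 fold change 0.40) was higher with the block alone (adjusted p = 0.048). The 1 proliferation call was lost without any 1 library other than HuCCT1/CD90+ library 1. The part of the cell cycle in the lower histone mRNA was not tested.

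Markers of cell types moved with the lines. The summed RPM of 6 biliary and epithelial genes was 8199 to 9306 in HuCCT1/CD90- and 10939 to 11677 in HuCCT1/CD90+, with KRT8, KRT18, KRT19 and EPCAM higher (9.41% of all genes) and KRT7 and SOX9 short of the threshold, EPCAM by the most (32.1, 24.9 and 28.8 against 416, 316 and 357 RPM, log2 fold change 3.62, SE 0.15, adjusted p = 0.0007). Of 4 fibroblast genes COL1A2, DCN and LUM were lower (9.52% of all genes) and COL1A1 was not called (sum 35.8 to 57.5 against 19.4 to 24.1 RPM), of 3 endothelial genes CDH5 was lower and PECAM1 and VWF were not called (sum 14.5 to 23.2 against 0.643 to 1.51 RPM), of 3 hepatocyte genes APOA1 was lower (sum 1.75 to 4.28 against 0 to 0.429 RPM), and of 3 leukocyte genes CD68 was higher (sum 46.5 to 55.9 against 83.9 to 100.5 RPM) while PTPRC had at most 1 read. COL1A2 had only 8, 3 and 5 reads in HuCCT1/CD90- and 0 in each HuCCT1/CD90+ library, and DCN had 0, 1 and 0 reads in HuCCT1/CD90+. In the fit over genes averaging 1 RPM or more SOX9 was higher and PECAM1 lower as well (20.6% and 21.1% of all), and COL1A2 was below that mean. With the replicate block KRT8, KRT19, DCN and COL1A2 lost their calls (adjusted p of 0.092, 0.14, 0.086 and 0.09). The part of these markers in the histone result was not tested.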

How the data were processed

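Total RNA of 6 HuCCT1 libraries was reverse-transcribed and amplified by the authors with a core panel of AmpliSeq primers for the human transcriptome, and the ampliSeqRNA plugin counted reads per gene. The authors deposited RPM values for 20811 genes, 1 amplicon a gene. The submitters' processing notes name hg19; the table holds no positions, so genes were placed by symbol with GENCODE on GRCh38, which holds all 66. The table's further columns are gene and amplicon names.

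Whole reads were recovered from the RPM steps for 100% of values (tolerance 0.1 read). PCR reads carry no molecular identifiers, so the floor of 3 reads covers counting error only. In a chi-square test no 2 libraries agreed within sampling noise. The main test was limma 3.58.1 in R 4.3.3 (lmFit and eBayes, log2(RPM + 1), all genes, 3 against 3, two-sided, Benjamini-Hochberg adjustment). The authors also used eBayes of limma, at a p and a fold threshold (1.5); the scale, the adjustment and the call without a fold were chosen here. Every adjusted p without another name comes from it. A fold change on this scale understates that of low genes. Scripts were tested on simulated data.

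Libraries 1, 2 and 3 of each line were checked for pairing by correlating their deviations from the line means over genes. Equal numbers gave r = 0.21, 0.32 and 0.18 and unequal ones at most 0.07, so a paired fit, with the number as a block, was set beside the unpaired main test and is given where it changes a call. No source says what the number marks. Alternatives were offsets of 0.1 and 5 RPM, minimum means of 1 and 10 RPM, quantile normalization, median centring, trend and robust eBayes, the replicate block, each library left out, and edgeR 4.0.16 and DESeq2 1.42.0 on the recovered reads.

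The members and lists were chosen with earlier results of these data known. Named were the 3 members of each class with the highest mean RPM, members called at 0.05 and averaging 1 RPM or more, up to 15 a direction by size of change, the HIST3 and HIST4 genes that averaged at least 1 RPM, in each list the 2 highest and up to 6 called genes, THY1 and the cell markers. Other genes named were chosen after their values were seen. Promoter windows and stem-loops were read from RefSeq and GENCODE tables.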

Additional observations from a re-analysis of the deposited data

How the results depend on the processing

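The count of 17 lower histone genes was 28 and 31 with means of at least 1 and 10 RPM, 26 with median centring, 7 with the replicate block, 33 with edgeR, 31 with DESeq2 and 0 to 9 without 1 library; other alternatives gave 14 to 20. The 1 higher gene became 0 with an offset of 5 RPM, both minimum means, median centring, edgeR, DESeq2 and a fold of 1.5 with either p, and 0 to 1 without 1 library. The median log2 fold change was -0.57 with edgeR over 52 genes, where limma gave -0.53, and -0.55 to -0.39 without 1 library. Called variants numbered 2 with the block and 1 to 3 without 1 library (5 in all). Called processing genes were 1 with quantile normalization, 5 with median centring and 0 to 2 without 1 library, against 3. Called chaperones were 2 to 3 without 1 library, against 4. Called S phase genes were 9 with both minimum means, edgeR and DESeq2 and 6 with median centring, against 3. Called proliferation genes were 4 and 6 with the minimum means, 2 with median centring, 2 with the block, 7 with edgeR and with DESeq2 and 0 to 1 without 1 library, against 1. The cause of these shifts was not tested. With genes without reads in the fit, limma's prior had 0.449 degrees of freedom, against 7.23 over genes averaging 1 RPM or more.

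Genes near 0 changed sign. HIST1H1A, at 0.00 on the log2 scale, gave -0.000489 with an offset of 5 RPM, -0.0237 with median centring, -0.0073 with edgeR and -0.14 to 0.076 without 1 library. HIST1H2BG gave 0.0040 with quantile normalization and -0.098 to 0.016 without 1 library, and H3F3B 0.065 and -0.13 to 0.099. Without 1 library the range was -0.038 to 0.12 for HIST1H2BK, -0.33 to 0.14 for ATRX, -0.043 to 0.18 for COL1A1, -0.027 to 0.24 for CSTF2, -0.10 to 0.13 for MKI67, -0.058 to 0.15 for NPAT and -0.19 to 0.064 for PCNA. Of 1545 values under an alternative, of 99 of the genes named here, 1213 kept direction and side of the threshold, 224 lost it, 83 gained it and 25 changed sign. The replicate block removed 15 of the 17 lower calls and added 5, and depth limits the 7 genes with at most 3 reads.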

Other observations

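Beside the HIST1 cluster some genes that are not histones moved by more than the histone genes did. They were chosen after their values were seen, 3 that rose most and 3 that fell most among the 35 neighbours. ZNF165, a zinc finger gene, measured 2.84, 5.14 and 6.50 RPM in HuCCT1/CD90- and 89.1, 105 and 123 RPM in HuCCT1/CD90+ (log2 fold change 4.24, limma adjusted p = 0.0024). ZSCAN12P1, a pseudogene, went from 0.569, 0.856 and 0.679 to 20.2, 17.4 and 26.2 RPM (log2 fold change 3.69, limma adjusted p = 0.00094). UBD, a ubiquitin-like gene, had at most 1 read in each HuCCT1/CD90- library and 5.79, 4.08 and 4.99 RPM in HuCCT1/CD90+. All HuCCT1/CD90+ libraries were above all HuCCT1/CD90- libraries in these genes.

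The butyrophilin genes BTN2A2 and BTN3A3, of a family that acts on T cells, fell. BTN2A2 was at 20.9, 30.5 and 27.5 RPM in HuCCT1/CD90- and 8.04, 9.67 and 8.68 RPM in HuCCT1/CD90+ (log2 fold change -1.47, limma adjusted p = 0.0077). BTN3A3 was at 12.2, 12.1 and 14.5 against 5.04, 3.49 and 5.53 RPM (log2 fold change -1.31, limma adjusted p = 0.012). CMAHP, a pseudogene, was at 4.64, 5.99 and 6.21 RPM in HuCCT1/CD90- and at 0.214, 0.466 and 0.217 RPM in HuCCT1/CD90+ (limma adjusted p = 0.0015). In these 3 genes the lines did not overlap.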
